A study of Mus musculus with 12 samples.

Results

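Pdlim3, Eya1 and Gab1 are the mouse genes whose human counterparts serve as markers of the sonic hedgehog (SHH) subgroup of medulloblastoma, a tumour of the cerebellum. They were read here in granule cell progenitors, which divide in the outer layer of the young cerebellum and from which SHH medulloblastoma can arise. A gene was taken as a member where its platform symbol matched one of these names exactly. This gave 3 of 18193 genes and 7 of 45037 probe sets: 1 for Pdlim3, 3 for Eya1 and 3 for Gab1. All 7 are described, and the probe set that was brightest by its mean over all arrays stood for its gene.

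The study asked whether progenitors of the lateral cerebellum and of the midline differ in their response to a strong hedgehog signal. SmoM2 mutants carried Atoh1-CreER, a tamoxifen-dependent recombinase driven by Atoh1 regulatory sequence and so active in granule cell precursors, and R26LSL-SmoM2-YFP, which lets recombined cells make an activated form of the hedgehog transducer Smoothened. They received tamoxifen at 200 µg per g at postnatal day 2. The groups were SmoM2 hemisphere, wild type hemisphere, SmoM2 vermis and wild type vermis, with 3 arrays each and 12 in all. The mice of all groups had a mixed C57BL/6 and Swiss Webster background and were sampled at postnatal day 8. Each array held progenitors of 5 pooled mice, enriched on a Percoll density gradient. Whether the wild type mice carried the Cre allele or received tamoxifen, and whether cells were sorted on YFP, is not stated in the labels.

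The hedgehog pathway works through Smoothened, which the receptor Ptch1 holds back until a ligand binds, and ends in Gli transcription factors. In the young cerebellum the ligand comes from Purkinje cells and keeps granule cell progenitors dividing. PDLIM3 and EYA1 belong to a transcript panel used to place human medulloblastomas in subgroups, beside HHIP, ATOH1 and SFRP1, while GAB1 is stained in tumour sections for the same purpose. Pdlim3 is a PDZ and LIM domain protein that binds alpha-actinin and is best known from muscle. Eya1 is a transcriptional coactivator with a phosphatase domain that works with DNA-binding partners and with Dach proteins. Gab1 is a docking protein that growth factor receptors phosphorylate and that then holds the phosphatase Ptpn11 and PI3 kinase at the membrane.

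Values are log2 expression on Affymetrix arrays, so a difference of 1 is a doubling, and levels of different probe sets are not compared. Array medians lay between 4.81 and 4.87 and arrays of a group correlated at 0.988 to 0.996. SmoM2 and wild type arrays separated on the first principal component, with 56.2% of the variance. Wild type hemisphere replicate 3 stood apart in its spiked controls, with dap at 7.92 and bioB at 7.07, below every other array. Without it, SmoM2 minus wild type in the hemisphere was 3.24 for Pdlim3, -0.22 for Eya1 and 0.55 for Gab1, and hemisphere minus vermis in wild type was 0.37, -0.14 and -0.20. Gli1, a transcriptional readout of the pathway, rose by 1.68 in SmoM2 hemisphere and 1.503 in SmoM2 vermis, and Ptch1 by 1.69 and 1.83, each against wild type of the same region. None of 8 granule progenitor markers lay below the lower quartile on all 12 arrays. The same held for each of the 10 lists of cell markers, so it does not tell cell types apart. Zic1 and Neurod1, among the 8, averaged 12.89 and 12.58. The summed level of these 8, as log2 of their linear sum, was 13.89 to 14.01 in SmoM2 arrays of both regions and 14.34 to 14.54 in wild type arrays. Such a sum follows its brightest genes, here Zic1 and Neurod1, and is not a count of progenitors. Of the 8, Atoh1 rose, by 0.82 in the hemisphere and 0.85 in the vermis. In the hemisphere 5 fell and in the vermis 4, among them Neurod1, a factor of maturing granule cells.

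Pdlim3 lies on chromosome 8 at 45885487 to 45919635, Gab1 on the same chromosome at 80764431 to 80880519 and Eya1 on chromosome 1 at 14168953 to 14311035 (RefSeq, GRCm38.p6). The 250 bases before the annotated start of Pdlim3 and Gab1, the members that were higher in SmoM2 hemisphere arrays, are shown. RefSeq held 2 promoter windows for Gab1, and only the one at the annotated gene start was searched, so motifs of the other are not known here. They come from RefSeq on GRCm38.p6, at chr8:45885237-45885486 on the plus strand for Pdlim3 and chr8:80880520-80880769 on the minus strand for Gab1, written 5′ to 3′ along the gene. Capitals mark 3 motifs searched on both strands: CAGCTG (an E-box), TGACGTCA (the cAMP response element) and GGGCGG (the GC box).
Pdlim3: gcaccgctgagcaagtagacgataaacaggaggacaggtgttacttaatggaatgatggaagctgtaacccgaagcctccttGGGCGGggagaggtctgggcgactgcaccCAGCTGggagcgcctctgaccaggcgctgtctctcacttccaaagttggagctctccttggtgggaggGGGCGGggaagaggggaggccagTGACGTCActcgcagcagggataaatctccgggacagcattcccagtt
Gab1: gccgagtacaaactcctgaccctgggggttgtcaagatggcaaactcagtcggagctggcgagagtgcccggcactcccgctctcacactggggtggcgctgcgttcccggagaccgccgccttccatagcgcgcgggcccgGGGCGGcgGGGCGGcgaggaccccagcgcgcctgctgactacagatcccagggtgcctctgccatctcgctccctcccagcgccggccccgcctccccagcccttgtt
The Pdlim3 window had a GC content of 59.2% with 11 CpG dinucleotides and the Gab1 window 70.8% with 24, where the median of all 32851 windows of this length was 52.4%. The Pdlim3 window held TGACGTCA at -48 from the start, a match found in 1.55% of all windows, and CAGCTG at -139, found in 13% of them. GGGCGG occurred in both windows, at -168 and -71 in Pdlim3 and at -108 and -100 in Gab1, and in 32.7% of all windows. The Gli binding motif GACCACCCA was in neither window and in 0.225% of all, and its looser form GACCNCCCA, which includes it, was also in neither and in 0.868% of all. The general E-box CANNTG, which includes CAGCTG, occurred in the Pdlim3 window only, 2 times, and in 66.2% of all windows, and TATAAA was in neither and in 12.4% of all. These letters describe the windows alone, and the choice of motifs was partly made after the windows had been read.

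In the hemisphere, SmoM2 progenitors held far more Pdlim3 and slightly more Gab1 transcript than wild type progenitors, while the main Eya1 probe set did not pass the test. In the vermis Pdlim3 rose by nearly the same amount and neither other member passed. The test was limma, fitted on all 12 arrays, and the threshold an adjusted p under 0.05 (Benjamini-Hochberg over 18193 genes). By that measure 2 of the 3 members passed in the hemisphere, where 14.8% of all genes did (7.62% higher in SmoM2). In the vermis 1 of 3 passed, where 17% of all genes did (7.56% higher). In bulk RNA, more transcript per cell and more cells of a kind that makes it cannot be told apart.

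Pdlim3 read 10.21, 10.32 and 10.34 in SmoM2 hemisphere, against 7.31, 6.80 and 7.02 in wild type hemisphere. It read 9.74, 9.92 and 9.82 in SmoM2 vermis, against 6.84, 6.50 and 6.72 in wild type vermis. All SmoM2 arrays lay above all wild type arrays, and the gap between the lowest SmoM2 and the highest wild type array was 2.90 within each region. Of all genes, 13.4% in the hemisphere and 17.3% in the vermis lay higher in SmoM2 without overlap. The group means were 10.29 ± 0.071 in SmoM2 hemisphere, 7.04 ± 0.26 in wild type hemisphere, 9.83 ± 0.090 in SmoM2 vermis and 6.69 ± 0.17 in wild type vermis (SD, n = 3 each). Pdlim3 thus rose by 3.25 in the hemisphere (SE 0.13, 95% interval 2.97 to 3.53, 9.51-fold; adjusted p = 4.12e-09, limma). In the vermis it rose by 3.14 (SE 0.13, 2.86 to 3.42, 8.82-fold; adjusted p = 3.22e-09, limma). Ordered by difference, these were ranks 7 and 8 of 18193 genes. Under all 23 alternatives run for each region the rise passed the test, with sizes from 3.13 to 3.38 in the hemisphere and 3.05 to 3.22 in the vermis.

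Gab1, read by the probe set 1417693_a_at, was at 9.72, 10.01 and 9.72 in SmoM2 hemisphere, against 9.40, 9.15 and 9.60 in wild type hemisphere. In the vermis the values were 9.70, 9.91 and 9.79 in SmoM2 arrays, against 9.65, 9.32 and 9.45 in wild type arrays. SmoM2 arrays lay above wild type arrays in both regions without overlap, by 0.12 in the hemisphere and 0.044 in the vermis, as did 13.4% and 17.3% of all genes. The means were 9.82 ± 0.17 in SmoM2 hemisphere, 9.38 ± 0.23 in wild type hemisphere, 9.80 ± 0.11 in SmoM2 vermis and 9.47 ± 0.17 in wild type vermis (SD, n = 3 each). In the hemisphere Gab1 rose by 0.44 (SE 0.13, 95% interval 0.15 to 0.72, 1.35-fold; adjusted p = 0.0425, limma), rank 1413 of 18193. In the vermis the difference was 0.32 (SE 0.13, 0.037 to 0.61, 1.25-fold) and did not pass (adjusted p = 0.109, limma). The hemisphere call ended under 13 of 23 alternatives, with adjusted p from 0.0504 to 0.163, among them leaving out wild type hemisphere replicate 2 (0.32) or SmoM2 hemisphere replicate 2 (0.34). Averaged over both regions, a contrast added after the data were seen, Gab1 was higher in SmoM2 by 0.38 (0.18 to 0.58; adjusted p = 0.00769, limma), where 35.5% of all genes passed. With arrays of the same number and genotype as a random block, its adjusted p was 0.0208, where 23.7% of all genes passed. On the same arrays, markers of oligodendrocytes (6 of 6) and of microglia (4 of 5) fell in each region. The difference between 3' and 5' probe sets of Actb, which moves with RNA integrity, was 0.98 ± 0.11 in SmoM2 hemisphere, 0.64 ± 0.17 in wild type hemisphere, 0.96 ± 0.098 in SmoM2 vermis and 0.89 ± 0.012 in wild type vermis (SD, n = 3 each). The part of either in the Gab1 values was not tested.

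Eya1, read by the probe set 1457424_at, was at 6.899, 6.625 and 7.043 in SmoM2 hemisphere, against 7.003, 7.140 and 6.550 in wild type hemisphere. In the vermis it was at 7.121, 6.996 and 7.157 in SmoM2 arrays, against 7.306, 7.356 and 6.973 in wild type arrays. The genotypes overlapped in both regions. Group means were 6.86 ± 0.21 in SmoM2 hemisphere, 6.90 ± 0.31 in wild type hemisphere, 7.09 ± 0.085 in SmoM2 vermis and 7.21 ± 0.21 in wild type vermis (SD, n = 3 each). The difference was -0.042 in the hemisphere (SE 0.16, 95% interval -0.38 to 0.30; adjusted p = 0.88, limma) and -0.12 in the vermis (SE 0.16, -0.46 to 0.22; adjusted p = 0.617, limma). These intervals lie far below the differences of Pdlim3, while each spans 0. The mean of the 3 Eya1 probe sets turned the sign, to 0.12 in each region, and did not pass either.

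**Figure D1:**
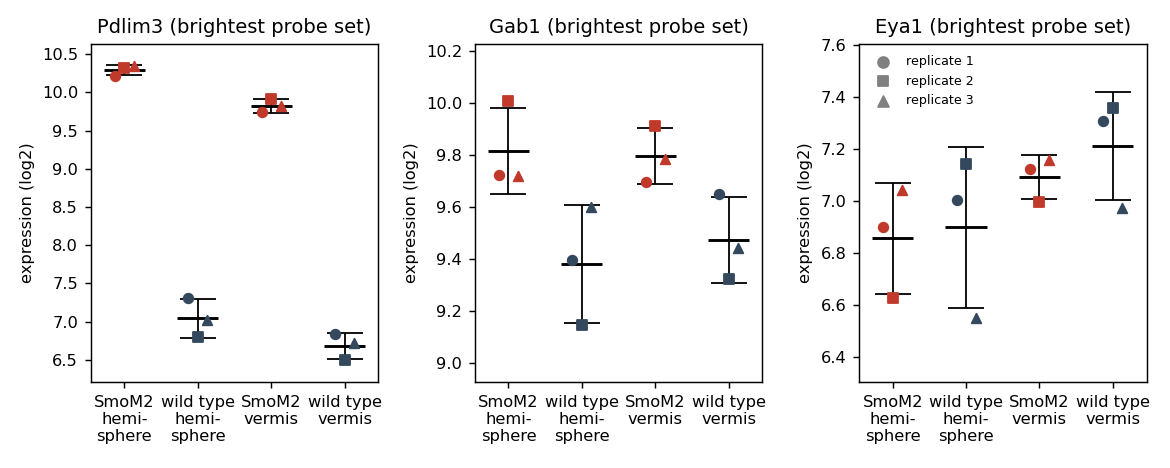
Log2 expression of Pdlim3, Gab1 and Eya1 (brightest probe set) on each array, with SmoM2 arrays in red, wild type arrays in dark blue and the replicate number as the point shape. Thick bars are group means and thin bars 1 SD (n = 3), and each panel has its own axis that does not start at 0. In each region the nearest SmoM2 and wild type arrays lay 2.90 apart for Pdlim3, Gab1 lay 0.12 and 0.044 above without overlap, and Eya1 overlapped. Of all genes, 13.4% in the hemisphere and 17.3% in the vermis lay higher in SmoM2 without overlap.

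Of the 3 Eya1 probe sets 1 passed, in both regions, which does not show that it differs from the others. The Eya1 probe set 1443117_at, designed on an expressed sequence tag as the main one was, read 4.76, 4.63 and 4.82 in SmoM2 hemisphere, against 4.36, 4.48 and 4.01 in wild type hemisphere. It read 5.02, 4.85 and 4.85 in SmoM2 vermis, against 4.53, 4.46 and 4.47 in wild type vermis. By main probe sets, 13.4% of all genes in the hemisphere and 17.3% in the vermis lay higher in SmoM2 without overlap. On 1443117_at, SmoM2 arrays lay above wild type arrays in each region, by 0.15 and 0.31. Its difference was 0.45 in the hemisphere (SE 0.12; adjusted p = 0.0295, limma over all 45037 probe sets) and 0.42 in the vermis (SE 0.12; adjusted p = 0.0415), where 10.7% and 11.2% of all probe sets passed. The hemisphere call ended under 5 of 20 alternatives and the vermis call under 10 of 20. The third Eya1 probe set, 1421727_at, designed on the RefSeq transcript, overlapped between genotypes in both regions, at -0.048 (adjusted p = 0.864) and 0.049 (adjusted p = 0.849). Its 12 values lay between 3.32 and 3.95, close to the lower quartiles of the arrays (3.24 to 3.42), where these arrays compress differences. The files do not say which exons or transcript ends each probe set reads.

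All 3 Gab1 probe sets were designed on the RefSeq transcript, and all were higher in SmoM2 in both regions. In the hemisphere, 1417694_at read 9.38, 9.60 and 9.43 in SmoM2, against 9.11, 8.86 and 9.13 in wild type, and rose by 0.44 (SE 0.12; adjusted p = 0.0362, limma over all probe sets). The probe set 1448814_at read 6.30, 6.43 and 6.41 in SmoM2 hemisphere, against 5.92, 5.22 and 5.81 in wild type hemisphere, and rose by 0.73 (SE 0.18; adjusted p = 0.019). Neither overlapped there, where the main probe sets of 13.4% of all genes lay higher without overlap and 10.7% of all probe sets passed. The main Gab1 probe set, adjusted over all probe sets, had an adjusted p of 0.0555. In the vermis 1417694_at and 1448814_at overlapped between genotypes and did not pass, at 0.28 (adjusted p = 0.159) and 0.30 (adjusted p = 0.288).

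**Figure D2:**
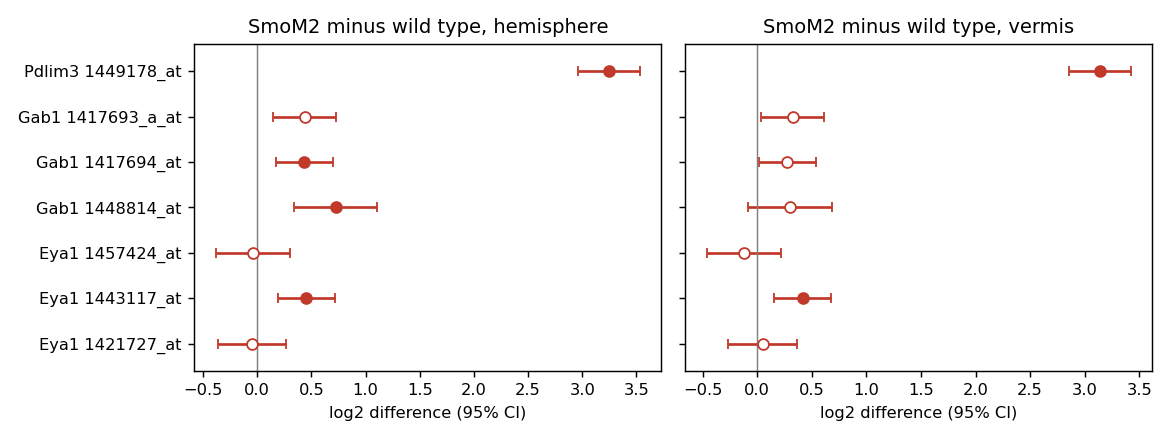
SmoM2 minus wild type on the log2 scale for each of the 7 probe sets, hemisphere on the left and vermis on the right, with 95% intervals. Filled points had an adjusted p under 0.05 over all 45037 probe sets, which was so for 4 in the hemisphere and 2 in the vermis. Of all probe sets, 10.7% passed in the hemisphere and 11.2% in the vermis. Pdlim3 stood at 3.25 and 3.14, the other 6 between -0.12 and 0.73.

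Between regions of the same genotype the main probe sets of Pdlim3 and Gab1 differed less than they did with SmoM2. For the main Eya1 probe set the regional differences were the larger ones. On the Gab1 probe set 1448814_at, hemisphere minus vermis in wild type was -0.37. Its SmoM2 minus wild type differences were 0.73 in the hemisphere and 0.30 in the vermis. No member passed in either comparison between regions, where 0.0605% of all genes passed in SmoM2 (11 genes) and 0.187% in wild type (34 genes). With arrays of the same number and genotype as a random block the counts were 39 and 198. Pdlim3 came nearest. It was higher in SmoM2 hemisphere than in SmoM2 vermis by 0.47 (SE 0.13, 95% interval 0.19 to 0.75), with a gap of 0.29 between the arrays, as 5.64% of all genes had in that direction, but its adjusted p was 0.689 (limma), and 0.0862 with the block. In wild type the difference was 0.36 (SE 0.13, 0.077 to 0.64; adjusted p = 0.581, and 0.119 with the block), and the arrays overlapped. The order of Pdlim3 levels was therefore SmoM2 hemisphere, SmoM2 vermis, wild type hemisphere and wild type vermis, where the lowest SmoM2 vermis array (9.74) lay well above the highest wild type hemisphere array (7.31) and the 2 regional steps did not pass.

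For Gab1 the order was SmoM2 hemisphere, SmoM2 vermis, wild type vermis and wild type hemisphere, and within each genotype the regions overlapped. Hemisphere minus vermis was 0.020 in SmoM2 (95% interval -0.27 to 0.31) and -0.092 in wild type (-0.38 to 0.19). For Eya1 the vermis groups stood above the hemisphere groups, with every neighbouring pair of groups overlapping. Its hemisphere minus vermis difference was -0.24 in SmoM2 (-0.57 to 0.10; adjusted p = 1, limma) and -0.31 in wild type (-0.65 to 0.024; adjusted p = 0.84, limma).

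Whether the SmoM2 effect itself differed between hemisphere and vermis was tested as an interaction. The SmoM2 effect in the hemisphere exceeded that in the vermis by 0.11 for Pdlim3 (95% interval -0.29 to 0.51), by 0.078 for Eya1 (-0.40 to 0.56) and by 0.11 for Gab1 (-0.29 to 0.52), each with an adjusted p of 1 (limma). Of all genes 0 passed this test in limma (0%), and 564 of 18193 had an unadjusted p under 0.05. That is a smaller share than a cutoff of 0.05 lets through where no gene differs. The Gab1 call in the hemisphere and its absence in the vermis therefore do not show a regional difference. Leaving out single arrays turned the sign of each of these 3 differences.

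**Figure D3:**
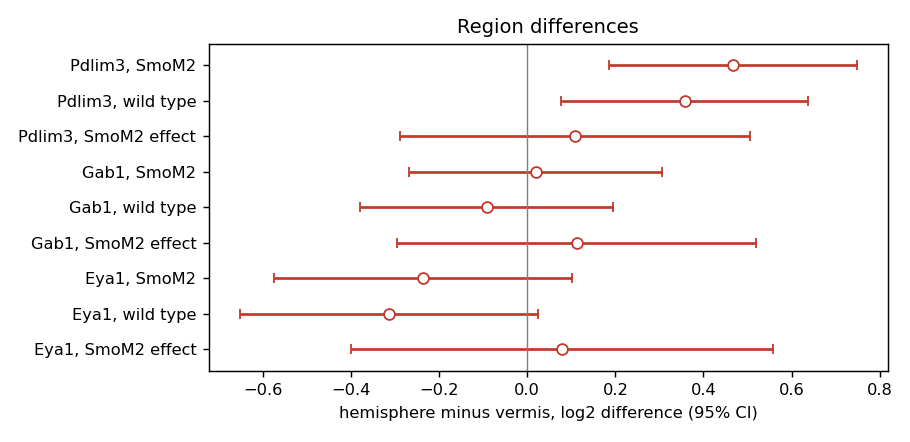
Hemisphere minus vermis on the log2 scale with 95% intervals, for each member in SmoM2, in wild type and for the SmoM2 effect itself (the interaction). Open points did not pass at an adjusted p of 0.05, which held for all 9. Pdlim3 stood at 0.47 and 0.36, and its interval in each genotype lay above 0 before adjustment over all genes.

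The other mouse counterparts of the human SHH transcript panel all rose. Hhip, which captures hedgehog ligand at the membrane, Atoh1, the transcription factor of dividing granule progenitors, and Sfrp1, a secreted Wnt inhibitor, passed in both regions, so 3 of 3 rose in each, with a median difference of 0.82 and 0.85, against -0.053 and -0.059 for all genes. Hhip read 8.59 to 8.70 in SmoM2 hemisphere, against 5.45 to 6.45 in wild type hemisphere, and rose by 2.66 there and by 2.61 in the vermis. Atoh1 rose by 0.82 and 0.85. Sfrp1 rose by 0.38 (adjusted p = 0.0177, limma) and 0.36 (adjusted p = 0.0222), calls that ended under 3 and 4 of 23 alternatives. Of its 5 probe sets, all higher in SmoM2, 3 passed over all probe sets in the hemisphere and 2 in the vermis. Of the 5 genes of that panel, Eya1 was thus the one whose main probe set did not pass in either region.

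The proteins stained beside GAB1 in tumour sections were read through Yap1, a transcriptional coactivator of the Hippo pathway, Flna, an actin crosslinker, and Ctnnb1, the beta-catenin of Wnt signalling and cell junctions. All 3 rose in both regions, with medians of 0.49 and 0.46, where 7.62% and 7.56% of all genes rose. Yap1 read 7.95 to 8.04 in SmoM2 hemisphere, against 7.16 to 7.32 in wild type hemisphere, and rose by 0.74 there and by 0.49 in the vermis. Flna rose by 0.49 and 0.46, calls that each ended under 6 of 23 alternatives, and Ctnnb1 by 0.36 and 0.37, which ended under 5 and 3. Gab1, at 0.44 and 0.32, lay in the range of Flna and Ctnnb1 in the hemisphere.

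For the transcript panels of the other medulloblastoma subgroups, falls were counted in 3 of 3 and rises in 1. Of 5 Group 4 genes, 4 fell and 0 rose in each region (7.18% and 9.46% of all genes fell), and their medians were -0.52 and -0.72. Eomes, which marks the lineage of unipolar brush cells, fell in both (-1.95 and -2.15), as did the potassium channel Kcna1 (-1.64 and -1.79). Khdrbs2, an RNA-binding protein (-0.52 and -0.42, ended under 2 and 8 of 23 alternatives), and Unc5d, a netrin receptor (-0.38, ended under 14 of 22 alternatives, and -0.72), fell too, while Rbm24 differed by 0.40 and 0.21 and did not pass. Of 4 measured Group 3 genes, Nrl, a retinal transcription factor, fell (-0.77 and -0.72) and the others did not pass. Of 5 WNT genes, the secreted Wnt inhibitor Wif1 rose by 1.13 and 1.19, Gad1, which makes GABA, fell (-0.97, ended under 7 of 23 alternatives, and -1.90), and the other 3 did not pass. No test set one panel against another.

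**Figure D4:**
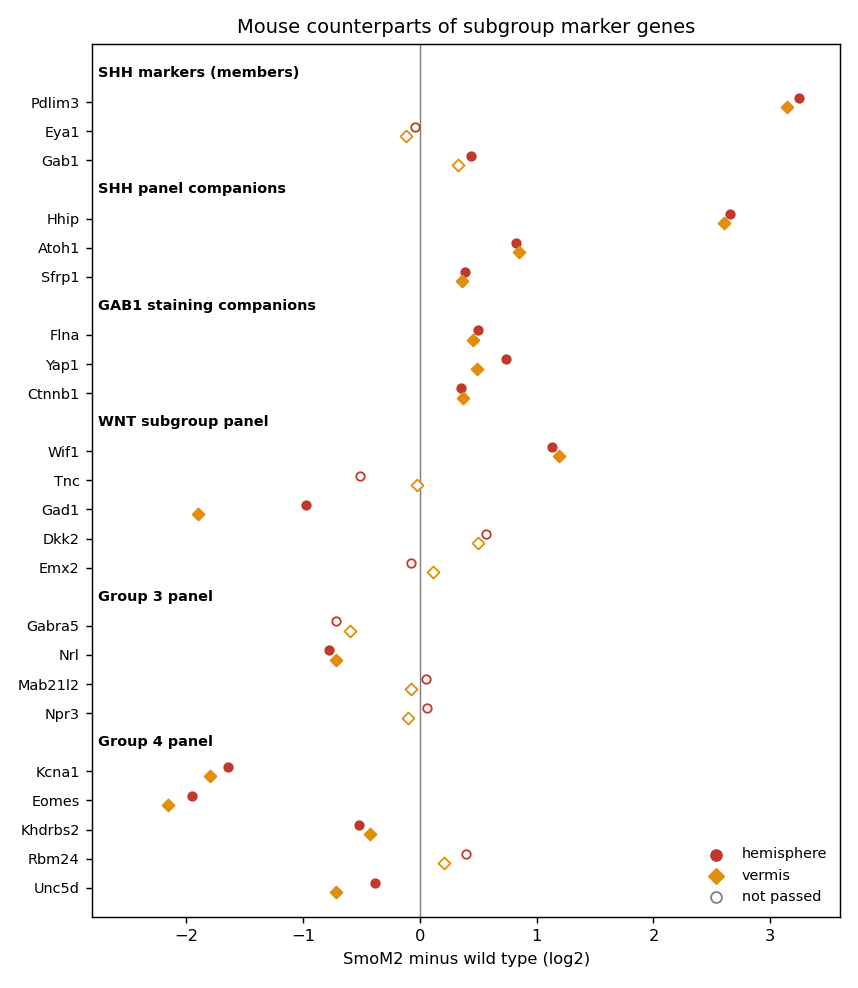
SmoM2 minus wild type on the log2 scale for the members and for mouse counterparts of the subgroup markers, with red circles for the hemisphere and orange diamonds for the vermis. Filled points had an adjusted p under 0.05 over all genes. The SHH panel companions and the GAB1 staining companions are filled to the right of 0 in both regions, and 4 of 5 Group 4 genes are filled to its left.

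Among the relatives of Pdlim3, 2 of 6 PDZ and LIM domain genes rose and 1 fell in each region, with medians of -0.13 and -0.026. Pdlim4, a close relative that also binds alpha-actinin, read 8.73 to 8.84 in SmoM2 hemisphere, against 6.47 to 7.16 in wild type hemisphere. It read 8.76 to 8.90 in SmoM2 vermis, against 6.83 to 7.08 in wild type vermis. Like Pdlim3, it did not overlap between genotypes, and it rose by 1.87 and 1.92 (adjusted p = 1.6e-06 and 1.27e-06, limma). Pdlim5 rose by 0.45 and 0.41, with 2 and 1 of its 7 probe sets past the threshold over all probe sets, and these calls ended under 8 and 10 of 23 alternatives. Pdlim2 fell (-0.63, ended under 6 of 22, and -0.81). Of the 4 alpha-actinin genes, the crosslinkers of actin filaments that Pdlim3 binds, Actn1 rose by 1.21 and 1.40 through 1 of its 3 probe sets. Actn4 rose by 0.35 in the hemisphere (adjusted p = 0.0492, limma), a call that ended under 14 of 23 alternatives, and differed by 0.12 in the vermis. Actn2 and Actn3, the muscle forms, did not pass and lay between -0.24 and 0.18.

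Since Pdlim3 is known from muscle, markers of muscle and of vessel wall cells were read beside it. Of 6 skeletal muscle markers, the myogenic transcription factors Myod1 (1.59 and 1.48, by 1 of 2 probe sets) and Myog (0.97 and 2.10) rose in both regions. Ckm, the muscle creatine kinase, fell by 0.42 in the hemisphere (ended under 7 of 22 alternatives), and Acta1, Tnnt3 and Myh3 did not pass. The summed level of these 6 was 7.58 to 7.78 in SmoM2 hemisphere, against 7.11 to 7.41 in wild type hemisphere, and 7.79 to 8.02 in SmoM2 vermis, against 7.11 to 7.26 in wild type vermis. Of 8 mural cell markers 0 passed in the hemisphere and 1 in the vermis, where Rgs5 fell by 0.96. The mural sum was 9.81 to 10.21 in SmoM2 hemisphere, against 9.70 to 10.40 in wild type hemisphere, and 9.42 to 10.01 in SmoM2 vermis, against 10.25 to 10.59 in wild type vermis. No marker of either list lay below the lower quartile on all 12 arrays, and none can be at 0 in these normalized values. Some were dim, among them Tnnt3 and Myh11 with means of 3.15 and 3.28, where the lower quartiles of the arrays were 3.24 to 3.42. The part of these cells in the Pdlim3 rise was not tested.

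Of the 3 Eya1 paralogs only Eya4 passed. Eya4 read 6.83 to 7.17 in SmoM2 hemisphere, against 4.91 to 5.92 in wild type hemisphere, and 7.14 to 7.62 in SmoM2 vermis, against 5.43 to 5.60 in wild type vermis. It rose by 1.54 and 1.84 (adjusted p = 0.000131 and 2.52e-05, limma), with 2 and 3 of its 4 probe sets past the threshold over all probe sets. Eya2 was at -0.27 and -0.031 and Eya3 at -0.033 and -0.029, and neither passed. Of 5 DNA-binding partners of Eya proteins (Six2, Six3, Six4, Six5 and Six6), 0 passed in either region and the differences lay between -0.33 and 0.11. Dach1, a corepressor that joins these complexes, fell (-0.37 and -0.39), by 1 of its 3 probe sets in each region. The mean of the 3 was -0.11 and -0.30 and did not pass in either region. Dach2 did not pass.

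Of the Gab1 relatives, Gab2 was at 0.34 in the hemisphere (adjusted p = 0.0462, limma) and 0.27 in the vermis. Its probe sets disagreed, since another one passed as lower in SmoM2 hemisphere (-0.48) and the mean of all was -0.082, so Gab2 is given no direction. Gab3 did not pass. Among 8 genes of proteins that bind Gab1, 2 passed as higher in SmoM2 hemisphere and 1 as lower in SmoM2 vermis, with medians of 0.098 and 0.014. Sos1, an exchange factor for Ras, rose by 0.63 in the hemisphere, a call that ended under 12 of 23 alternatives, and Pik3r1, a regulatory subunit of PI3 kinase, by 0.44. Of the 4 Pik3r1 probe sets, which ran from -0.24 to 0.62, 1 passed, and the call ended under 8 of 23 alternatives, with 0.22 for their mean. Another regulatory subunit, Pik3r2, fell by 0.58 in the vermis (ended under 5 of 23), and Ptpn11, the phosphatase that Gab1 holds, was at 0.14 in both regions and did not pass.

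Of 6 receptors known to signal through Gab1, 3 passed as higher in SmoM2 hemisphere, 2 in SmoM2 vermis and 0 as lower. Met, the receptor for hepatocyte growth factor, read 4.89 to 4.96 in SmoM2 hemisphere, against 3.57 to 3.99 in wild type hemisphere, and rose by 1.20 there and by 1.07 in the vermis. Its second probe set was at -0.26 and -0.20 and did not pass, and the mean of both was 0.47 and 0.44. Fgfr1, a fibroblast growth factor receptor, rose by 0.92 and 0.89. Egfr, the epidermal growth factor receptor, was at 0.38 in the hemisphere (adjusted p = 0.0202, limma) and 0.15 in the vermis. Of its 7 probe sets, which ran from -0.27 to 0.59 in the hemisphere, 2 passed there, and the mean of the 7 was 0.090 (adjusted p = 0.55) and -0.052, so Egfr is given no direction. Pdgfra, Igf1r and Kit did not pass.

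**Figure D5:**
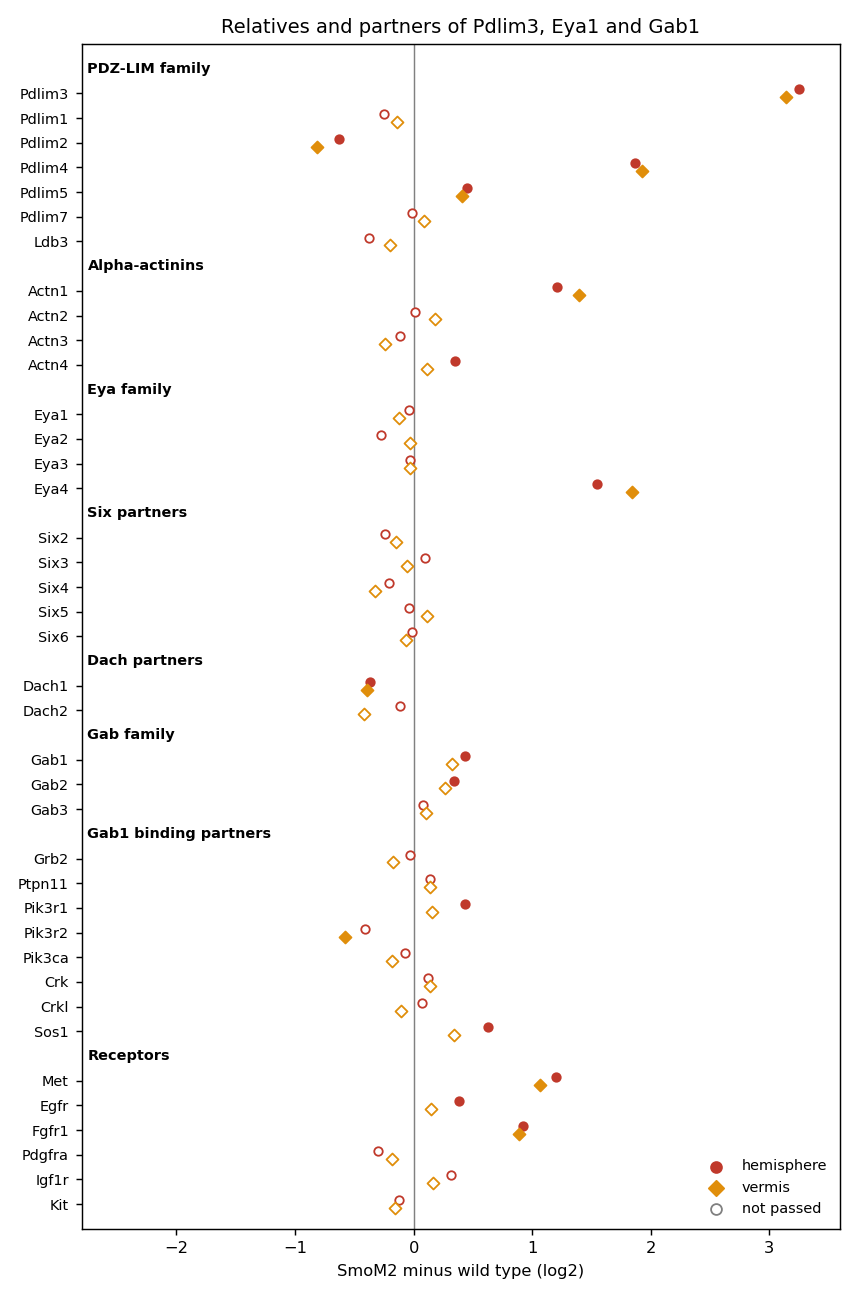
SmoM2 minus wild type on the log2 scale for relatives and partners of the members, with red circles for the hemisphere and orange diamonds for the vermis. Filled points had an adjusted p under 0.05 over all genes. Pdlim3, Pdlim4, Pdlim5, Actn1, Eya4, Met and Fgfr1 are filled to the right in both regions, and none of the genes Six2 to Six6 is filled.

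The genes most like a member were taken as those with the smallest root mean square difference over the 12 arrays after each gene was centred on its own mean. For Pdlim3 they were Crym (a thyroid hormone binding protein, 0.251), Etv5 (an ETS transcription factor, 0.290), Cbln4 (a secreted synaptic protein, 0.321), Prmt8 (an arginine methyltransferase, 0.344) and Sox1 (a neural transcription factor, 0.345), where the median of all genes was 1.65. For Gab1 they were Bag6 (a chaperone, 0.0518), Arhgef12 (a guanine nucleotide exchange factor, 0.0803), Cactin (0.0848), Tbrg4 (0.0856) and Dxo (0.0886), with a median of 0.31 for all genes. For Eya1 they were Skil (a corepressor of Smad proteins, 0.0901), Ptpn4 (a tyrosine phosphatase, 0.0938), Idi1 (an enzyme of isoprenoid synthesis, 0.105), Clock (a circadian transcription factor, 0.105) and Mir22hg (0.110), with a median of 0.30. The lists held unequally under 16 alternatives: 3 to 5 of the 5 genes stayed for Pdlim3, 2 to 5 for Gab1 and 0 to 5 for Eya1. Wild type hemisphere replicate 3 stood apart in its spiked controls. Of its group, it read lowest for Eya1 and for all 5 genes most like it. For Gab1, Bag6, Arhgef12 and Cactin it read highest of its group, while for Tbrg4 and Dxo replicate 1 did. The likeness describes these arrays, which share normalization. The labels do not say whether arrays of the same number and genotype share pools of mice.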

How the data were processed

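The authors deposited log2 expression values per probe set of an Affymetrix mouse genome array. Per the submitters' processing notes these log2 values were made with Partek and RMA, which corrects background, normalizes by quantiles and summarises probes, compresses low differences and leaves no detection call. The notes give no versions. The deposited table held 45101 probe sets, 64 of them controls, and all 12 value columns were used. The platform annotation gave 1 symbol to 34945 of the other 45037, several to 932 and none to 9160, and 34741 matched the RefSeq gene table (GRCm38.p6). The brightest probe set by its mean over 12 arrays was kept for each of 18193 genes.

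Group means were fitted with limma 3.58.1 in R 4.3.3 (lmFit, eBayes, 8 residual degrees of freedom, two-sided), with adjustment over all genes, or over all 45037 probe sets where stated. The 5 contrasts were SmoM2 minus wild type in each region, hemisphere minus vermis in each genotype, and the interaction. The fit was tested on simulated data. With 3 arrays per group the number of arrays limits the precision, and the median SD within a group was 0.13. Nothing says whether pools came from separate litters, so p-values measure the spread between these pools.

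Arrays of the same number deviated together between hemisphere and vermis of a genotype (correlations 0.142 to 0.275 in SmoM2 and 0.337 to 0.527 in wild type). The labels do not say that such arrays share mice. The main fit had no block, and number and genotype served as a block in alternative fits. Across genotypes the correlations were -0.224 to 0.177 and the numbers did not pair.

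Members and gene lists (14 of pathways, families and panels and 10 of cell markers, 116 of 120 genes analysed here) were chosen with earlier results of these data known. Named genes were the members, the list genes with the largest differences past the threshold or that define a list, and the 5 genes most like each member. Alternatives were other normalizations, filters, probe set rules, variance models, blocks, array weights, sample subsets and leaving out each array. Promoter windows came from RefSeq tables, which held Pdlim3 and Gab1 (the window at the annotated gene start, 1 of 2 for Gab1), and Eya1 was not analysed there.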

Additional observations from a re-analysis of the deposited data

How the results depend on the processing

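The Pdlim3 rise passed in both regions under all 23 alternatives. In the hemisphere Gab1 no longer passed when quantiles were normalized again (0.38, adjusted p = 0.065), when p was adjusted over all probe sets (0.44, 0.0555), with the replicate block (the number as a fixed block, 0.44, 0.0504), without moderation (0.44, 0.0886) or with only the groups compared (0.44, 0.0913), and leaving out single arrays gave 0.32 to 0.55 (adjusted p 0.0205 to 0.163). Eya1 with the mean of its probe sets gave 0.12 in the hemisphere and 0.12 in the vermis. Leaving out single arrays gave -0.22 to 0.079 for Eya1 in the hemisphere. Gab1 in SmoM2, hemisphere minus vermis, was -0.017 with array weights and -0.076 to 0.076 with single arrays left out. In wild type it was -0.20 to 0.025 with single arrays left out. The interactions were -0.014 to 0.24 for Pdlim3, -0.095 to 0.20 for Eya1 and -0.0050 to 0.22 for Gab1 with single arrays left out.

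Genes passing in the hemisphere numbered 1753 with only the groups compared and 1633 (without SmoM2 hemisphere replicate 1) to 4277 (without wild type hemisphere replicate 1) with single arrays left out, against 2694. In the vermis the range was 1756 to 3828 against 3096. For hemisphere minus vermis in SmoM2, against 11, there were 6 among brighter genes and 39 with number and genotype as a random replicate block. Without moderation there was 1, with array weights there were 42, and leaving out single arrays gave 2 to 18. In wild type, against 34, there were 21 among brighter genes, 13 over all probe sets, 198 with the random replicate block, 5 without moderation, 15 with array weights, 3 with only the groups compared and 8 to 58 with single arrays left out. The interaction had 0 or 1. The fixed block by genotype and number, chosen after seeing the data, gave 15 genes in SmoM2 and 49 in wild type, and no blocked fit changed the call of a member beyond Gab1 in the hemisphere.

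Of the calls for other named genes, 22 of 38 in the hemisphere and 25 of 34 in the vermis held under all alternatives, and 16 and 9 ended under at least 1. The sign turned for some values near 0. The mean of probe sets gave -0.082 for Gab2 in the hemisphere and -0.052 for Egfr in the vermis. Normalizing quantiles again gave -0.020 for Rgs5 and 0.044 for the Eya1 probe set 1421727_at in the hemisphere and 0.091 for Eya2 in the vermis, and median centring gave 0.0036 for Eya2 and 0.0055 for Eya3 in the vermis. With single arrays left out, Rgs5 was -0.090 to 0.28 and 1421727_at -0.18 to 0.14 in the hemisphere, and in the vermis Eya2 was -0.10 to 0.056, Eya3 -0.087 to 0.0019 and 1421727_at -0.0042 to 0.15. The causes were not tested. Since these values carry no detection call, changes of dim probe sets may be understated.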

Other observations

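Myelin and glial genes moved with genotype on the same arrays as Pdlim3 and Gab1. All 6 oligodendrocyte markers analysed fell in both regions, with medians of -1.40 and -1.85, and their summed level was 11.51 to 12.31 in SmoM2 arrays, against 13.08 to 13.94 in wild type arrays. Of 5 oligodendrocyte precursor markers, Olig2 rose by 2.10 and 1.47 and Olig1 by 1.75 and 1.09, both transcription factors of that lineage, while Sox10 and the receptor Gpr17 fell in both regions. Of 5 microglia markers, 4 fell in each region, among them Csf1r, a growth factor receptor, by 1.09 in both. Of 6 astroglia markers, Aqp4, a water channel, and Gja1, a gap junction protein, fell in both regions. No astroglia marker rose. The part of these cells in the values of the members was not tested.

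Of the 8 granule progenitor markers, Atoh1 rose in both regions while 5 others were lower in SmoM2 hemisphere and 4 in SmoM2 vermis. Neurod1, a transcription factor of maturing granule cells (-0.85 and -0.82), and Cntn2, which newly formed granule neurons carry (-0.90 and -1.07), were among them. Of 6 endothelial markers 0 passed in the hemisphere, while Tek (-0.81) and Cldn5 (-0.89) fell in the vermis. Of 6 meningeal fibroblast markers, Col3a1 and Lum rose in the hemisphere and Ogn and Dcn fell. In the vermis Lum rose and Ogn and Col1a2 fell. Of 4 Purkinje cell markers Pvalb rose in both regions, by 0.78 and 0.45, and the others did not pass.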
